A study of Mus musculus with 41 samples.

Results

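The 10 genes described here are the immediate early and AP-1 genes of mouse bone: the Fos family members Fos, Fosb, Fosl1 and Fosl2, the Jun family members Jun, Junb and Jund, and the stress-responsive genes Egr1, Atf3 and Ier2. They were chosen by gene symbol from a count table of 43346 genes, each symbol named a single row, and all 10 had enough counts to be tested among 19292 genes. The table holds bulk RNA-seq of 41 tibiae from female INK-ATTAC mice, cleared of marrow by centrifugation. INK-ATTAC mice carry a transgene in which a fragment of the p16Ink4a promoter drives a caspase that the drug AP20187 (AP) activates, so that AP kills the cells in which that promoter is active. All 3 groups carry it, and no sample analysed here lacks it. The 12 young mice were 6 to 12 months old by the labels, and the remaining mice were 20 months old when a treatment of 4 months began, with vehicle in 13 mice and with AP at 10 mg/kg, given on a twice-weekly schedule, in 16 mice. The labels also list vehicle for the young mice without a dose or duration. Mice are named below by the number in their sample title.

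AP-1 is a transcription factor built from pairs of basic leucine zipper proteins. Jun proteins pair with each other or with Fos proteins, while Fos proteins need a Jun partner to bind DNA. Fos, Fosb, Jun, Junb, Egr1, Atf3 and Ier2 are immediate early genes: serum, mechanical load and stress kinases induce them within minutes and without new protein synthesis, and their transcripts decay fast. Fosl1 and Fosl2 usually follow later, and Jund is the Jun gene with the steadiest expression. In bone, Fos is needed for osteoclasts to form, while Fosl1, Fosl2 and the short product of Fosb act on matrix formation by osteoblasts. Jun belongs to the senescence gene list that the study compiled, and the other 9 genes do not.

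Total counts per mouse ran from 37028959 to 75942717 with a median of 47774880, and the 37 mitochondrial genes were at 0 in every mouse. Markers of osteoblasts, osteocytes and osteoclasts were all detected, as were those of muscle, blood and marrow cells. The summed level of 10 muscle markers ran from 7000 to 107000 CPM, which are counts scaled to a common library total. In such bulk samples, a change in the share of a cell type and a change in RNA per cell cannot be told apart. Cdkn2a, the gene that encodes p16Ink4a, had a median of 0.587 CPM in young mice, 2.2 CPM in old vehicle mice and 1.1 CPM in old AP mice, and its ranges overlapped among the 3 groups.

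The 10 genes lie on 8 chromosomes of the mouse genome (build GRCm38). Fos is at chromosome 12, 85473890 to 85477273, on the plus strand, Fosb at chromosome 7, 19302721 to 19310045, on the minus strand, and Jun, a gene of 1 exon, at chromosome 4, 95049034 to 95052222, on the minus strand. Chromosome 8 holds a group of 3: Jund (70697739 to 70700616, plus strand), Ier2 (84661331 to 84662852, minus strand) and Junb (84976909 to 84978748, minus strand). These same 3 genes have the highest GC share in their exons, with 67.1% in Jund, 62.6% in Junb and 60.9% in Ier2, against 51.9% to 58.5% in the other 7 genes. Levels with trends over GC share and length removed are therefore given beside the comparisons below.

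For 7 of the 10 genes, a RefSeq promoter entry was available (GRCm38.p6), and the 250 bases before the annotated start are shown for Fos and Fosb, whose levels moved together most closely among the Fos genes, and for Jun and Junb, which did not move closely together. All are written 5′ to 3′ on the strand of the gene. Capitals mark TGACG, the core of the cyclic AMP response element, in Fos, Fosb and Junb, and TGACATCA, a variant AP-1 and ATF site, in Jun.
Fos (chr12:85473640-85473889): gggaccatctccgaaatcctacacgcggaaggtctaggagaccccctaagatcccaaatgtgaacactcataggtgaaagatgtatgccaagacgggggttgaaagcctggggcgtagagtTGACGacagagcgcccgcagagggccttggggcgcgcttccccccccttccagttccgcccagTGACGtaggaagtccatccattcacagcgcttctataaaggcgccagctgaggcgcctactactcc
Fosb (chr7:19310046-19310295): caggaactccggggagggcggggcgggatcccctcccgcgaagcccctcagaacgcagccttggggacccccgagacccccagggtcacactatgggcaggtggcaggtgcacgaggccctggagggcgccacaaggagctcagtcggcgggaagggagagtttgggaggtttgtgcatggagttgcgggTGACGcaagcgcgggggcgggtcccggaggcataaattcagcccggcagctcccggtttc
Jun (chr4:95052223-95052472): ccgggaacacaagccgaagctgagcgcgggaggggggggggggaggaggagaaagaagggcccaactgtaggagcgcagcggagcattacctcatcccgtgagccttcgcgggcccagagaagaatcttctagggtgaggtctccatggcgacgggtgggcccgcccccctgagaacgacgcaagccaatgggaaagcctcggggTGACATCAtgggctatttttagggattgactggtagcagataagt
Junb (chr8:84978749-84978998): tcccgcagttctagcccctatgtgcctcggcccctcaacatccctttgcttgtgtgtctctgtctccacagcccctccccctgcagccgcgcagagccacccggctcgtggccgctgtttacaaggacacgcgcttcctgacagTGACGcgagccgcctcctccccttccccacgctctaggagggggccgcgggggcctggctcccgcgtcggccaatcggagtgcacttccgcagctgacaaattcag

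The motif TGACG, searched on both strands, was present in 4 of the 7 windows (Fos, Fosb, Junb and Atf3), against 17.8% of 32851 promoter windows of the same length. In Fos it occurred at -129 and -66 from the start, in Fosb at -60, and in Junb at -106. The motif TGACATCA was present in the Jun window alone, at -45, and in 2.93% of all windows. The full palindrome TGACGTCA, which contains TGACG, the classical AP-1 site TGANTCA and the CArG box of serum response factor were in none of the 7 windows and in 1.55%, 6.75% and 1.47% of all windows. These are matches of letters, with no measurement of binding behind them.

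Per kilobase of the exon length in the table, Fosl2 had the highest mean of the 10 genes and had like means in the 3 groups, with 20.9 ± 3.23 CPM per kb (SD) over the 12 young mice, 21.2 ± 4.54 over the 13 old vehicle mice and 21 ± 4.23 over the 16 old AP mice. In old vehicle mice it was followed by Fos (19.5 ± 12.6), Jun (17.7 ± 7.91), Ier2 (17.6 ± 6.60) and Junb (16.2 ± 10.0), which differed from each other by less than their spread. Egr1 (11.9 ± 4.93), Atf3 (7.89 ± 3.43) and Jund (6.47 ± 2.74) came next. The order depended on the length used: divided by the longest annotated transcript, Fos (21.8 CPM per kb in old vehicle and 20.0 in old AP mice) was above Fosl2 (19 and 18.8), and Jund reached 11.2 in old vehicle mice. Fosb (2.04 ± 2.49) and Fosl1 (0.274 ± 0.529) were the lowest, and in both the SD exceeded the mean. In young mice Fosl2 had the highest mean by either length, with Ier2 (13.1 ± 3.68) and Fos (10.5 ± 2.68 CPM per kb) next.

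The first comparison asked which of these genes differ with age. In old vehicle mice, 7 of the 10 genes were higher than in young mice and none was lower. The genes that rose were Fos, Fosb, Fosl1, Jun, Junb, Egr1 and Atf3, and those that did not pass the test were Fosl2, Jund and Ier2. A gene passed at an adjusted p below 0.05 in edgeR's quasi-likelihood test together with a log2 fold change beyond 0.5 in size. Over all tested genes, 4.3% were higher and 4.76% were lower by this rule. The median log2 fold change was 0.84 over the 10 genes and 0.007 over all tested genes.

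**Figure D1:**
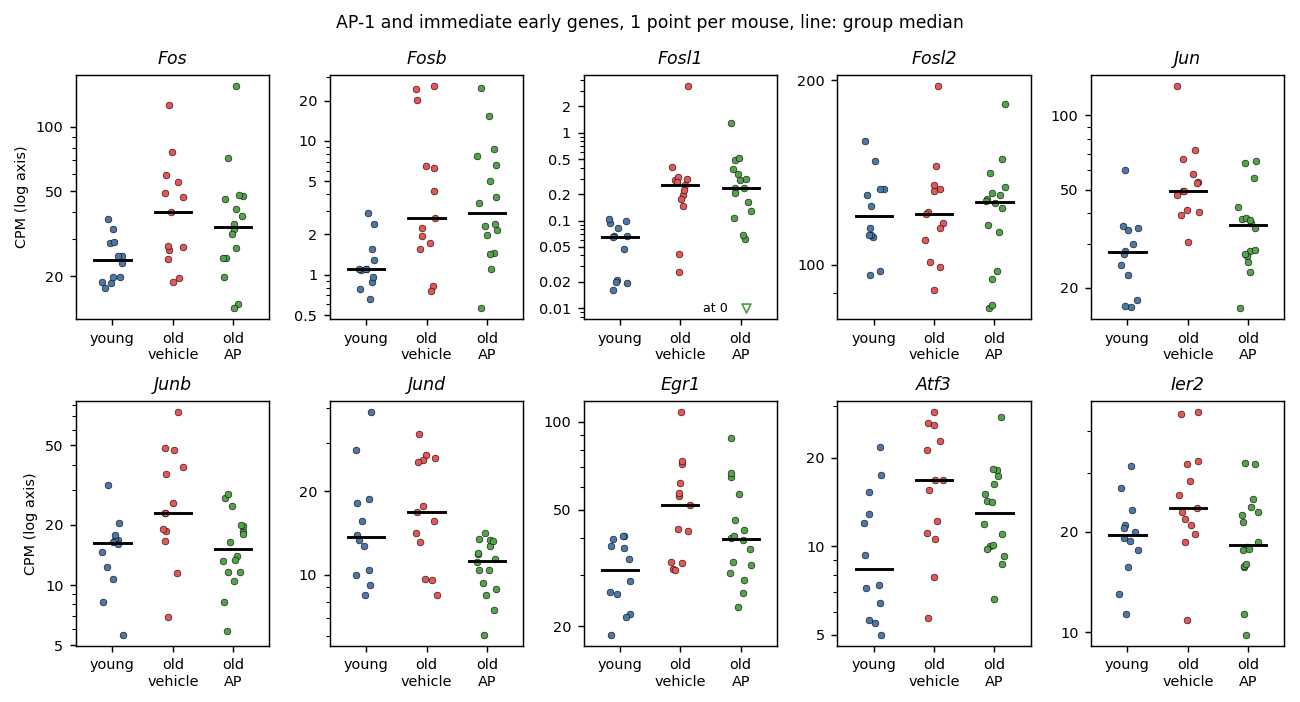
Level of each of the 10 genes in CPM on a log axis, 1 point per mouse, with a line at the group median, for 12 young, 13 old vehicle and 16 old AP mice. Fos reached 126 and 156 CPM in 1 mouse of each old group while no young mouse exceeded 37.3 CPM, Fosl2 overlapped almost completely, and the open triangle marks the 1 old AP mouse in which Fosl1 was at 0.

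Fos, the prototype partner of Jun in AP-1, ranged from 17.7 to 37.3 CPM in young mice with a median of 24. In old vehicle mice it ranged from 18.9 to 126 CPM with a median of 39.9. The lower ends of both groups coincide, and the difference lies in the upper end: 7 of 13 old vehicle mice were above every young mouse. Fos rose by 0.90 ± 0.30 on the log2 scale (SE, edgeR adjusted p = 0.0308). Mouse 6, with 126 CPM, carried part of this. Without it the change was 0.67 and no longer passed (adjusted p = 0.0902), and with limma's sample quality weights it was 0.63 (adjusted p = 0.117).

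Fosb, which is induced along with Fos, ranged from 0.655 to 2.88 CPM in young mice (median 1.1) and from 0.755 to 25.9 CPM in old vehicle mice (median 2.64). The old vehicle mice split widely, with 3 mice above 20 CPM (mice 6, 8 and 16 at 20.3, 25.9 and 24.6 CPM) and the other 10 at 6.5 CPM or below. Its log2 fold change was 2.54 ± 0.58 (edgeR adjusted p = 0.00162). With sample quality weights it was 1.42 (adjusted p = 0.0682), whereas leaving out any single mouse kept it between 2.22 and 2.71 and past the test.

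Fosl1, which encodes Fra-1, was close to the detection limit. In young mice 1 to 7 reads per mouse were counted, with a median of 3, or 0.0657 CPM. In old vehicle mice the counts ran from 1 to 147 with a median of 10, and 11 of 13 mice were above the highest young mouse. The log2 fold change was 2.96 ± 0.62 (edgeR adjusted p = 0.000674), with counts this low in the young group. It fell to 1.87 (adjusted p = 0.00581) without mouse 16, which reached 3.45 CPM against 0.403 CPM in the next mouse.

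Fosl2, which encodes Fra-2, did not follow the other Fos genes. It ranged from 96.4 to 159 CPM in young mice (median 120) and from 90.9 to 196 CPM in old vehicle mice (median 121). The groups overlapped almost completely, and the log2 fold change was 0.02 ± 0.11.

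Among the Jun genes, Jun ranged from 16.7 to 59.8 CPM in young mice (median 27.8) and from 30.5 to 132 CPM in old vehicle mice (median 49.4). All 13 old vehicle mice were above the young median. Jun rose by 0.96 ± 0.21 on the log2 scale (edgeR adjusted p = 0.0014), and it stayed between 0.79 and 1.10 and past the test whichever mouse was left out.

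Junb, a Jun protein that can oppose Jun at some promoters, ranged from 5.65 to 31.5 CPM in young mice (median 16.2) and from 6.9 to 73.5 CPM in old vehicle mice (median 23). The groups overlapped at the lower end, and 5 of 13 old vehicle mice were above every young mouse. Its log2 fold change was 0.94 ± 0.28 (edgeR adjusted p = 0.0146). Jund had ranges of 8.44 to 38.7 CPM in young mice and 8.48 to 32.1 CPM in old vehicle mice, so that no old vehicle mouse exceeded the highest young mouse, and its log2 fold change was 0.18 ± 0.22.

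Egr1, a zinc finger factor induced by the same kinase pathways as Fos, ranged from 18.7 to 40.7 CPM in young mice (median 31.2) and from 31 to 108 CPM in old vehicle mice (median 51.7). Here 9 of 13 old vehicle mice were above every young mouse. The log2 fold change was 0.78 ± 0.20 (edgeR adjusted p = 0.00488), and it passed whichever mouse was left out.

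Atf3, a stress-induced factor that pairs with Jun proteins, ranged from 5.01 to 21.7 CPM in young mice (median 8.39) and from 5.71 to 28.6 CPM in old vehicle mice (median 16.8). Its log2 fold change of 0.70 ± 0.25 lay near the threshold (edgeR adjusted p = 0.0423) and passed in 28 of 41 fits that each left out 1 mouse. Ier2, a small nuclear protein of the immediate early response, ranged from 11.3 to 31.5 CPM in young mice and from 10.9 to 45.7 CPM in old vehicle mice, and had a log2 fold change of 0.43 ± 0.18 that did not pass (adjusted p = 0.0982).

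**Figure D2:**
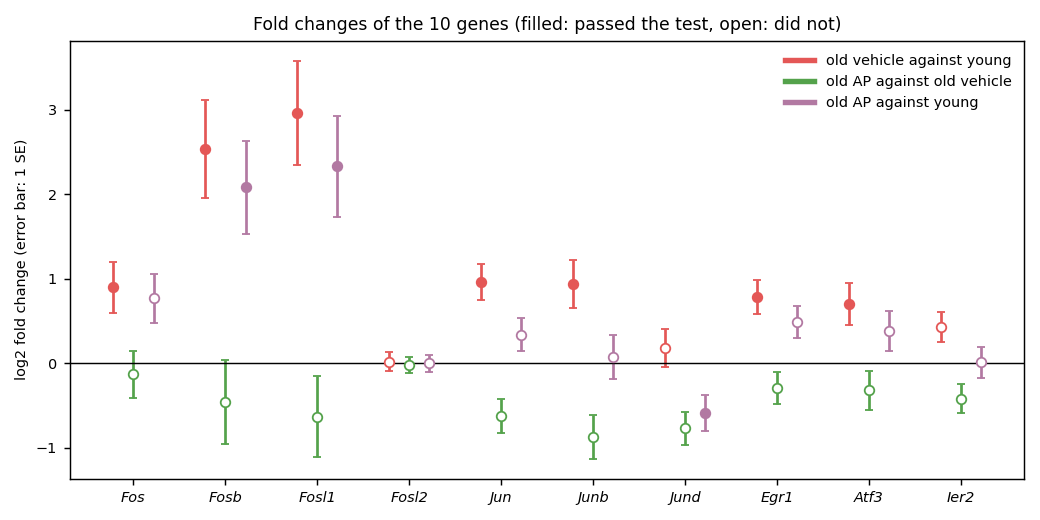
Log2 fold changes of the 10 genes in the 3 comparisons, with error bars of 1 SE, filled where the gene passed the test and open where it did not. Fosb (2.54) and Fosl1 (2.96) had the largest changes between old vehicle and young mice, Fosl2 lay within 0.02 of 0 throughout, and the plotted changes between old AP and old vehicle mice were open and below 0, although Fos and Fosb were above 0 with sample quality weights, Atf3 with muscle markers in the model and Fosl2 with GC and length trends removed, and DESeq2 passed Jun, Junb and Jund.

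Markers of several cell types were measured beside these changes. Between old vehicle and young mice, 7 of 10 B cell markers were lower (median log2 fold change -0.92), as were 3 of 9 erythroid markers (-0.79) and 3 of 10 osteoblast markers (-0.54). Of 10 osteocyte markers 2 were higher and 2 lower, and of 10 adipocyte markers 2 were higher and 1 lower. In each remaining list at most 1 marker passed. The part of these cell types in the members' changes was not tested. The summed level of the 10 muscle markers had a median of 39700 CPM in young mice (15900 to 91400), 62600 CPM in old vehicle mice (14100 to 107000) and 42300 CPM in old AP mice (7000 to 83400), so the groups overlapped. Of these markers 1, Acta1, passed the test between old vehicle and young mice. When the mean log2 level of these markers was added to the model, Jun was 0.87 ± 0.17 and Atf3 0.55 ± 0.18 higher in old vehicle than in young mice (adjusted p = 0.000142 and 0.0208), all 7 genes still passed, and Ier2 passed too (0.51 ± 0.15, adjusted p = 0.0103).

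The GC slope, the change of log2 level per 10 percentage points of GC share across 19097 genes in a mouse relative to the mean of all mice, had a median of -0.0562 in young mice, 0.0955 in old vehicle mice and -0.00949 in old AP mice. It was above 0 in 5 of 12 young, 10 of 13 old vehicle and 7 of 16 old AP mice, and the ranges of the groups overlapped. With the trends over GC share and length removed from each mouse, Junb was 0.73 ± 0.23 and Jun 0.85 ± 0.20 higher in old vehicle than in young mice (adjusted p = 0.0218 and 0.00238). Under that setting 6 of the 10 genes passed, Atf3 at 0.66 ± 0.24 being the one that did not (adjusted p = 0.0531). These 2 settings were added once the values were known, and the shares of all tested genes passing under them were not measured.

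The second comparison asked whether AP changed these genes in old mice. No member passed: the log2 fold changes of old AP against old vehicle mice lay between -0.87 and -0.02, with a median of -0.44 against -0.004 over all tested genes. Over all tested genes, 0.0259% were higher and 0.0467% were lower by the same rule, which is 5 and 9 genes. At an unadjusted p below 0.05, Jun, Junb, Jund and Ier2 were lower, as were 9.36% of all tested genes. DESeq2's Wald test passed Jun, Junb and Jund as lower, and 0.601% of the genes with a DESeq2 adjusted p. No marker of the 11 cell type lists passed in edgeR, and the median log2 fold change was -0.45 for muscle, 0.45 for erythroid, 0.40 for B cell and 0.38 for T cell markers, and between -0.30 and 0.18 for the other 7 lists. The part of muscle was tested through the model with muscle markers and that of the other cell types was not tested.

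The Jun genes carried these values. Jun ranged from 16.5 to 65.3 CPM in old AP mice with a median of 35.8, between the medians of young (27.8) and old vehicle mice (49.4), and 13 of 16 old AP mice were below the old vehicle median. Its log2 fold change was -0.62 ± 0.20 (edgeR adjusted p = 0.0761, DESeq2 adjusted p = 0.0414). Junb ranged from 5.88 to 28.4 CPM with a median of 15.2, below both other medians, and its log2 fold change was -0.87 ± 0.26 (edgeR adjusted p = 0.0643, DESeq2 adjusted p = 0.0285).

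Jund kept to a narrow range in the treated mice. It ranged from 6.08 to 14.2 CPM in old AP mice with a median of 11.3, and all 16 mice were below the old vehicle median of 16.9, although the group ranges overlapped. The log2 fold change was -0.77 ± 0.20 (edgeR adjusted p = 0.0536, DESeq2 adjusted p = 0.0188). Leaving out 1 mouse at a time, edgeR passed Jund in 9, Junb in 4 and Jun in 3 of 41 fits, and up to 3 members at once.

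Trends over GC share and length were removed together, so their parts cannot be told apart. With GC and length trends removed, Jund was at -0.33 ± 0.11, Junb at -0.54 ± 0.21 and Jun at -0.53 ± 0.18 (edgeR adjusted p = 0.181, 0.202 and 0.181), and Ier2 went from -0.42 ± 0.17 to -0.16 ± 0.15. With the muscle markers in the model, Jund was at -0.80 ± 0.21, Junb at -0.96 ± 0.26, Jun at -0.45 ± 0.16 and Ier2 at -0.56 ± 0.14 (adjusted p = 0.0863 for Ier2).

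None of the Fos genes, Egr1 and Atf3 passed between the treatments in edgeR. Fos ranged from 14.2 to 156 CPM in old AP mice (median 34.2), a range that enclosed that of old vehicle mice, and its log2 fold change was -0.13 ± 0.28. Mouse 29, with 156 CPM of Fos, also had the highest Fosb (24.8 CPM) and Egr1 (88.1 CPM) of the old AP mice. Fosb was at -0.46 ± 0.50, Egr1 at -0.29 ± 0.19 and Atf3 at -0.32 ± 0.23. The sign changed under other settings, with Fos at 0.06 and Fosb at 0.25 under sample quality weights, Fosl2 at 0.003 with GC and length trends removed, and Atf3 at 0.03 with muscle markers in the model. Without old vehicle mouse 6, Fos was at 0.10. Fosl1 was at -0.63 ± 0.48, and it was at 0.46 when old vehicle mouse 16 was left out.

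Against young mice, old AP mice had higher Fosb (log2 fold change 2.08 ± 0.55, edgeR adjusted p = 0.0078) and Fosl1 (2.33 ± 0.60, adjusted p = 0.0064), and lower Jund (-0.59 ± 0.21, adjusted p = 0.0391). Over all tested genes, 3.73% were higher and 4.85% were lower. In this comparison 7 of 10 osteoblast markers were lower (median log2 fold change -0.79) and 4 of 10 T cell markers were higher (0.81). Of 10 osteocyte markers 2 were higher and 3 lower, and in each remaining list at most 2 markers passed. The part of these cell types was not tested. This comparison shares the young mice with the first and the old AP mice with the second. Fosb was above the young median in 15 of 16 old AP mice. Fos at 0.77 ± 0.29 and Egr1 at 0.49 ± 0.19 did not pass (adjusted p = 0.0576 and 0.0702). DESeq2 passed Fos (0.78, adjusted p = 0.0322), limma with sample quality weights passed Egr1 (0.50, adjusted p = 0.0458), and the model with muscle markers passed Atf3 (0.58 ± 0.17, adjusted p = 0.012). Jun was at 0.34 ± 0.20, and Junb (0.07 ± 0.26), Ier2 (0.01 ± 0.18) and Fosl2 (0.00 ± 0.10) lay near 0. Jund was lower with DESeq2 (-0.59, adjusted p = 0.0276) and with muscle markers in the model (-0.60, adjusted p = 0.0256) as well. Jund passed in 33 of 41 fits that each left out 1 mouse. The smallest change, -0.41 (adjusted p = 0.138), came without young mouse 32, whose 38.7 CPM was the highest of all mice. With sample quality weights the change was -0.47 (adjusted p = 0.0791), and with GC and length trends removed it was -0.33 ± 0.11, short of the fold threshold.

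Genes that act with the 10 members were described from lists of other immediate early transcription factors (20 genes), immediate early effectors (20) and feedback inhibitors (20), of which 59 were tested. In old vehicle against young mice, 10 were higher and 1 was lower, where 4.3% and 4.76% of all tested genes were, with a median log2 fold change of 0.27 against 0.007 over all tested genes. Of the transcription factors, Nfil3 (0.53 ± 0.17) and Egr2 (0.51 ± 0.18) rose and Npas4 fell by 1.20 ± 0.22 on the log2 scale (edgeR adjusted p = 0.0285, 0.0457 and 0.000221). Of the effectors, Ptgs2, which encodes the prostaglandin synthase COX-2, was higher by 1.92 ± 0.62, and the growth arrest genes Gadd45a and Gadd45b were higher by 0.79 ± 0.21 and 0.52 ± 0.12 (adjusted p = 0.0256, 0.00609 and 0.0017). Ptgs2 averaged 2.66 ± 6.2 CPM in old vehicle mice (SD, n = 13), so its spread was larger than its mean.

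Of the feedback inhibitors, 5 of 20 rose. Socs3, a brake on cytokine receptors, was higher by 0.92 ± 0.20 and above the young median in 13 of 13 mice. The MAP kinase phosphatase gene Dusp8 was higher by 0.54 ± 0.18 and the Ras pathway inhibitor Spry4 by 0.52 ± 0.13 (edgeR adjusted p = 0.00114 for Socs3, 0.0323 for Dusp8 and 0.00445 for Spry4). With the fold threshold dropped, 19 of the 59 genes passed, and 6 passed with GC and length trends removed. The shares of all tested genes passing under these settings were not measured, so 4.3% and 4.76% do not apply to these counts.

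In old AP against old vehicle mice, none of the 59 genes passed in edgeR and 3 passed in DESeq2, with a median log2 fold change of -0.21. Over all tested genes the edgeR shares were 0.0259% higher and 0.0467% lower, and 1.33% passed in DESeq2 in either direction. In old AP against young mice, Socs3 was higher (0.74 ± 0.19, edgeR adjusted p = 0.00661), and Cyr61 (-1.03 ± 0.18), Nr4a3 (-1.17 ± 0.33) and Npas4 (-1.01 ± 0.21) were lower (adjusted p = 8.16e-05, 0.0118 and 0.000847), against 3.73% higher and 4.85% lower over all tested genes. Cyr61, a matricellular protein gene induced by YAP, averaged 69.4 ± 24.3 CPM in old AP mice and 142 ± 50.7 CPM in young mice, and all 16 old AP mice were below the young median.

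Neither the 16 other bZIP partners and inhibitors of AP-1 nor the 20 kinases and factors upstream of Fos and Jun held a gene that passed between old vehicle and young mice. Between old AP and young mice 1 gene of these lists passed, the kinase gene Rps6ka1 (0.53 ± 0.19, edgeR adjusted p = 0.0425). Of 20 genes described as AP-1 targets in bone or fibroblasts, 2 were higher and 3 were lower in old vehicle than in young mice. These counts, like those that follow, may be read against the 4.3% higher and 4.76% lower of all tested genes. The chemokine gene Ccl2 was higher by 1.74 ± 0.46, while the bone matrix genes Bglap and Ibsp fell by 1.71 ± 0.31 and 0.65 ± 0.23 (adjusted p = 0.00572, 0.000137 and 0.0392). Ccl2 averaged 3.77 ± 6.27 CPM in old vehicle mice (SD), and 3 of 13 mice were below the young median. Of 12 heat shock genes, 4 were higher in old vehicle mice, among them Hspb1 (1.29 ± 0.30), Hspa1b (0.85 ± 0.23) and Bag3 (0.80 ± 0.21; adjusted p = 0.00206, 0.00859 and 0.0049). Of 12 hypoxia genes, 2 were higher, Egln3 (1.21 ± 0.30) and Slc2a1 (0.81 ± 0.16; adjusted p = 0.00382 and 0.000354).

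Spread between mice set the Fos genes apart from each other. The SD of log2 CPM within groups was 1.36 for Fosb, larger than that of 98.9% of tested genes, and 1.09 for Fosl1 (97.7%), the gene with the lowest counts. For Fos and Junb it was 0.73, larger than that of 87.6% and 87.9% of tested genes, and for Fosl2 it was 0.27, larger than that of 35.4%. For Fos the SD was 0.35 in young, 0.81 in old vehicle and 0.85 in old AP mice, and for Fosb it was 0.60, 1.73 and 1.42. Atf3 had no such rise, with 0.71, 0.71 and 0.52. The median SD of all tested genes was 0.29, 0.36 and 0.38. Jund varied less in old AP mice than in the other groups, with 0.34 against 0.66 in young and 0.64 in old vehicle mice. Differences in SD between groups were not tested.

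Co-variation between mice was measured on log2 CPM with each group's mean removed, over 41 mice, so that differences between the groups do not enter. Of the 45 pairs among the 10 genes, 23 passed at an adjusted p below 0.05 in a two-sided permutation test of Pearson's r (100000 permutations within groups, adjusted over 45 pairs), and 15 passed without the 2 farthest mice of each pair. In 20 of the 23 the genes rose and fell together, and in 3 they moved in opposite directions. The median r over the 45 pairs was 0.32, against -0.011 over all 186080986 pairs of tested genes. An r of 0.36 or more in size, the smallest among the pairs that passed, was also common outside the set: 33.9% of all pairs of tested genes had one, against 51.1% of the 45.

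**Figure D3:**
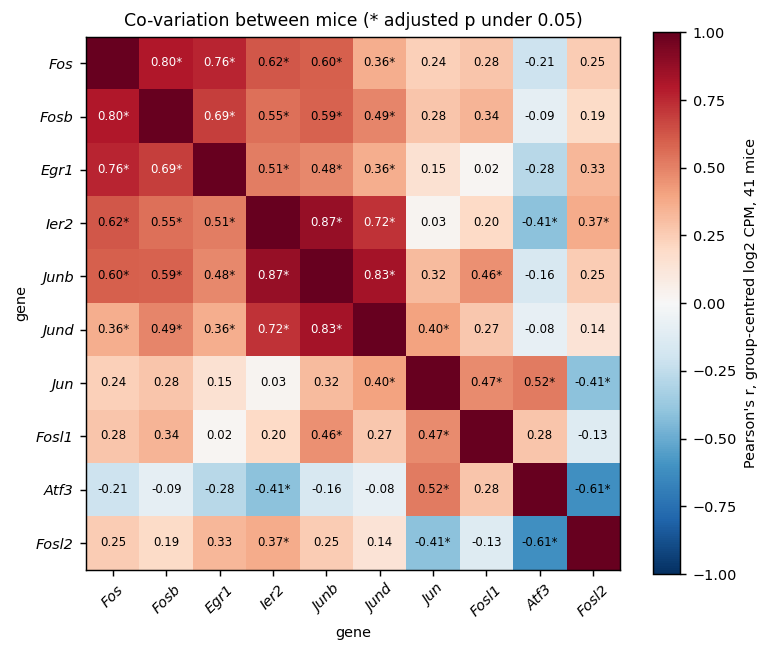
Pearson's r between each pair of the 10 genes over 41 mice after each group's mean was removed, with red for positive and blue for negative values and an asterisk for an adjusted p below 0.05. Fos, Fosb and Egr1 form one block (0.69 to 0.80) and Ier2, Junb and Jund another (0.72 to 0.87), while Atf3 and Fosl2 are opposed (-0.61).

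Blocks of genes are described as they appeared in these values. The first held Fos, Fosb and Egr1. Fos and Fosb had an r of 0.80 and a rho of 0.82, with a permutation p of 1e-05 for each, the smallest the permutations can give, and an r of 0.74 without the 2 mice farthest from the median of Fos (mice 6 and 29). Fos and Egr1 had an r of 0.76 and a rho of 0.69 (permutation p = 1e-05 and 2e-05), and 0.66 without the same mice. Fosb and Egr1 had an r and a rho of 0.69 (permutation p = 1e-05 for each), and 0.65 without mice 8 and 29. The adjusted p of r was 6.43e-05 for each of these 3 pairs. Ranks by r were taken among all 19292 tested genes and count the reference gene itself, whose r with itself is 1. By r with Fos, 1 gene, Fos itself, stood above Fosb, and 2 stood above Egr1. By r with Fosb, 5 stood above Egr1, Fosb itself included.

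The old groups each showed this block. Within old vehicle mice r was 0.82 for Fos with Fosb and 0.92 for Fos with Egr1, and within old AP mice it was 0.83 and 0.82. Within young mice it was 0.44 and 0.11, and neither passed (adjusted p = 0.482 and 0.863), in a group where Fos itself varied less. Whether these values of r differ between the groups was not tested.

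**Figure D4:**
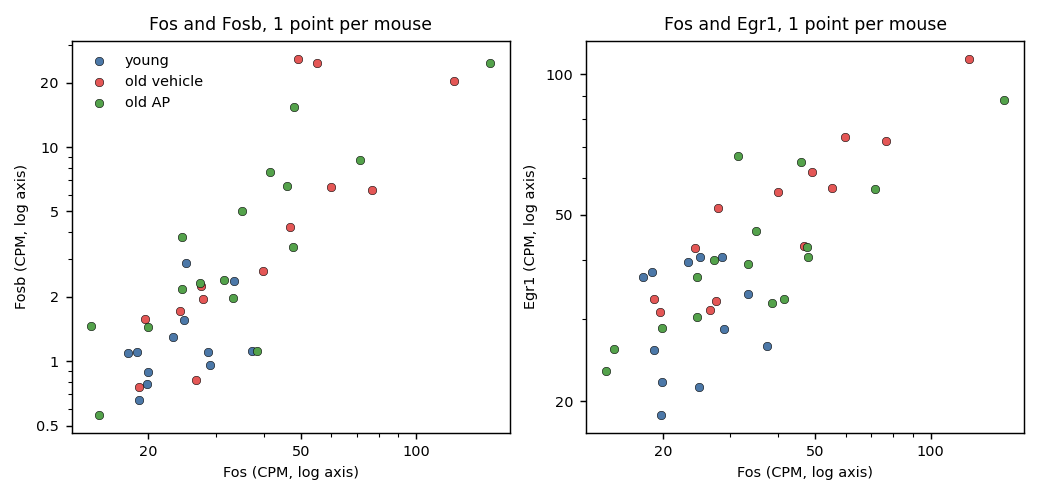
Fosb (left) and Egr1 (right) against Fos in CPM on log axes, 1 point per mouse, coloured by group. Old vehicle mouse 6 (Fos 126, Egr1 108 CPM) and old AP mouse 29 (Fos 156, Egr1 88.1 CPM) sit at the upper right, and the young mice sit at the lower left with Fos between 17.7 and 37.3 CPM.

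The second block held Junb, Ier2 and Jund, the 3 GC-rich genes of chromosome 8. Junb and Ier2 had an r and a rho of 0.87 (permutation p = 1e-05 for each), and 0.91 without mice 16 and 20. Junb and Jund had an r of 0.83 and a rho of 0.87 (permutation p = 1e-05 for each), and 0.82 without the same mice. Jund and Ier2 had an r of 0.72 and a rho of 0.73 (permutation p = 1e-05 for each), and 0.66 without mice 20 and 32. The adjusted p of r was again 6.43e-05 for each. Again counting the reference gene itself, 21 genes had a higher r with Junb than Ier2 had and 66 a higher r with Junb than Jund had. With Jund, 319 had a higher r than Ier2 had. Junb with Ier2 stood at 0.91, 0.83 and 0.92 within young, old vehicle and old AP mice.

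The GC slope of a mouse moved with this block. Its r, over 41 mice and with group means removed, was 0.88 with Jund, 0.83 with Junb and 0.68 with Ier2 (rho 0.90, 0.81 and 0.63; permutation p = 1e-05 for each r, adjusted p = 6.67e-05 over 40 relations), 0.43 with Jun, 0.38 with Fosb, 0.35 with Egr1 and 0.33 with Fos, of which Jun and Fosb passed (adjusted p = 0.0201 and 0.0464). Without the 2 mice farthest from the median slope it was 0.87, 0.77 and 0.56 for Jund, Junb and Ier2. With the GC and length trends removed, r was 0.79 for Junb with Ier2, 0.69 for Junb with Jund and 0.59 for Jund with Ier2, while Fos with Fosb stayed at 0.80 and Fos with Egr1 was 0.74. Under that setting 21 of the 45 pairs passed, and Jun with Jund, at 0.40 in the first analysis, was at 0.10.

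Between the blocks, Fos had an r of 0.62 with Ier2 and 0.60 with Junb (rho 0.52 and 0.56; permutation p = 6e-05 and 8e-05, and p = 0.00112 and 0.00061 for rho; adjusted p = 0.000337 and 0.0004 for r), and 0.53 and 0.56 without mice 6 and 29. Counting the reference gene itself, 981 genes had a higher r with Ier2 than Fos had and 918 a higher r with Junb. In the same way, 12 and 24 had a higher r with Fos than Ier2 and Junb had. In young mice the values were -0.15 and -0.01.

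Jun and Atf3 are described together. Jun had an r of 0.52 with Atf3 (rho 0.54, permutation p = 0.00063 and 0.00049, adjusted p = 0.00236 for r), and 0.42 without mice 16 and 40. Counting Jun itself, 2642 genes had a higher r with Jun than Atf3 had. With the genes of the blocks, Jun had an r of 0.40 with Jund, 0.32 with Junb, 0.24 with Fos and 0.03 with Ier2, and Atf3 had an r of -0.41 with Ier2. The r of Jun with Fosl1, 0.47, was 0.31 without mice 12 and 16 and then did not pass. Atf3 and Fosl2 were opposed, with an r of -0.61 and a rho of -0.57 (permutation p = 1e-05 and 0.00016, adjusted p = 6.43e-05 for r), -0.55 without mice 7 and 27, and -0.69, -0.57 and -0.64 within young, old vehicle and old AP mice. Jun and Fosl2 were opposed as well, with an r of -0.41 and a rho of -0.54 (permutation p = 0.00993 and 0.0006, adjusted p = 0.0248 for r), and -0.44 without those mice.

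Cell type markers moved with several of the genes. Of 120 relations between the 10 genes and either the total count or 1 of 11 marker lists, 19 passed (adjusted over 120), and none of these was with the total count. An r of 0.39 or more in size, the smallest among those that passed, was found in 20.0% of the 120 relations and in 28.6% of the same relations over all tested genes, so the members' share lay below that of all genes. The muscle list had an r of 0.72 with Atf3, 0.65 with Jun, -0.61 with Fosl2 and -0.60 with Ier2 (rho 0.74, 0.67, -0.65 and -0.61; permutation p = 1e-05, 1e-05, 0.00011 and 5e-05, adjusted p = 0.00024, 0.00024, 0.0016 and 0.001). Leaving out the 2 mice farthest from the median of the list gave 0.70, 0.63, -0.57 and -0.60. Within young, old vehicle and old AP mice, Atf3 stood at 0.88, 0.80 and 0.56 with the muscle list, and Jun at 0.82, 0.34 and 0.75. Jun also had an r of -0.67 with the neutrophil list, -0.57 with the erythroid list and 0.48 with the adipocyte list (rho -0.59, -0.52 and 0.45; adjusted permutation p = 0.00024, 0.00168 and 0.014 for r). Atf3 had an r of -0.55 with the B cell list, -0.52 with the osteoclast list, -0.46 with the osteoblast list, -0.45 with the erythroid list and -0.44 with the neutrophil list (rho -0.61, -0.44, -0.42, -0.49 and -0.46; adjusted permutation p = 0.0016, 0.0034, 0.00832, 0.022 and 0.0275 for r).

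Fosl2 followed the osteoclast list, whose 10 genes include Acp5, Ctsk and Calcr, with an r of 0.85 and a rho of 0.81 (permutation p = 1e-05 for each, adjusted p = 0.00024 for r), 0.80 without the 2 farthest mice, and 0.86, 0.86 and 0.85 within young, old vehicle and old AP mice. Its r with the osteoblast list was 0.69 (rho 0.59, adjusted permutation p = 0.00024 for r). The summed level of the osteoclast list had medians of 4200, 4120 and 3690 CPM in young, old vehicle and old AP mice, and so did not separate the groups, as Fosl2 did not. Egr1 had an r of 0.58 with both the osteoblast list (rho 0.63) and the endothelial list (rho 0.60; adjusted permutation p = 0.00229 and 0.0016 for r). Junb and Ier2 had an r of 0.50 and 0.52 with the macrophage list (rho 0.50 and 0.53; adjusted permutation p = 0.00832 for both). Jund had an r of 0.39 with the osteoblast list (rho 0.49, adjusted permutation p = 0.022 for r). By r, Fos, Fosb and Fosl1 passed with none of the 11 lists, whereas by rho Fos passed with the macrophage list (0.44, adjusted permutation p = 0.0318) and Fosb with the osteoblast list (0.45, adjusted permutation p = 0.0356).

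**Figure D5:**
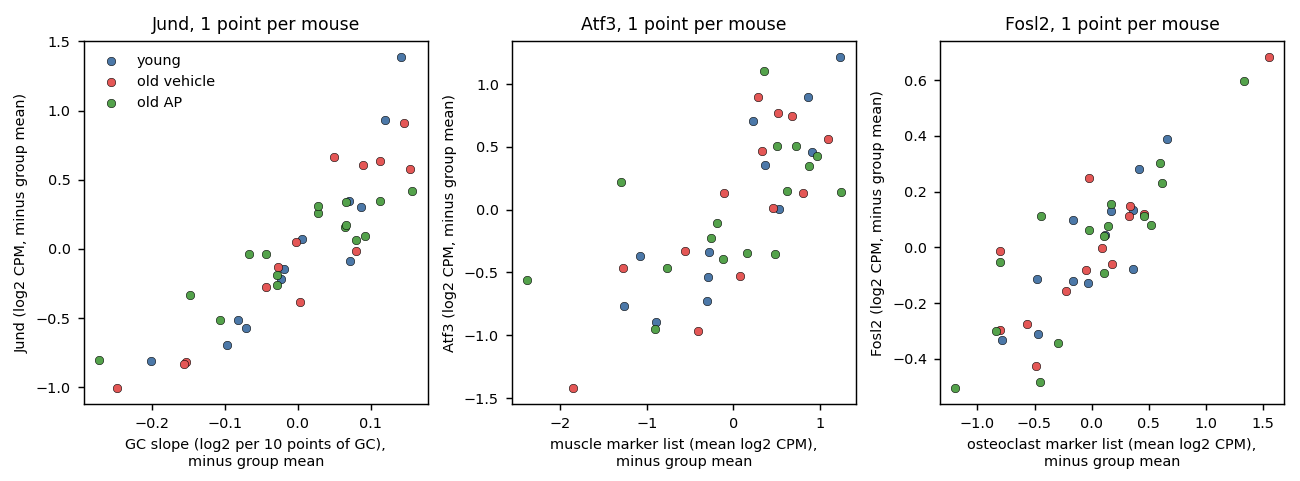
Deviation of Jund, Atf3 and Fosl2 from their group means (log2 CPM) against the deviation of the GC slope, of the muscle marker list and of the osteoclast marker list, 1 point per mouse, coloured by group. Pearson's r was 0.88, 0.72 and 0.85, and each relation runs through all 3 groups.

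A family of 40 relations was added once the values were known, with the GC slope, the share of counts on the 10 highest genes and lists of heat shock and hypoxia genes. The share of counts on the 10 highest genes had an r of 0.54 with Jun and 0.37 with Jund (rho 0.50 and 0.37; adjusted permutation p = 0.0012 and 0.0452 for r). It passed with no other member, and its r with Jun was 0.34, 0.85 and 0.44 within young, old vehicle and old AP mice. In this family an r of 0.37 or more in size was found in 45% of the members' relations and in 46.6% of those of all tested genes. The heat shock list had an r of 0.77 with Atf3, 0.69 with Jun, -0.59 with Fosl2 and -0.44 with Ier2 (rho 0.79, 0.66, -0.63 and -0.47; permutation p = 1e-05, 1e-05, 2e-05 and 0.00452, adjusted p = 6.67e-05, 6.67e-05, 0.0001 and 0.0151), and -0.31 with Fos and -0.15 with Fosb. Without the 2 mice farthest from the median of the list, the first pair of values was 0.73 and 0.70. The hypoxia list had an r of 0.69 with Atf3, 0.53 with Jun and -0.68 with Fosl2 (rho 0.68, 0.56 and -0.68; adjusted permutation p = 6.67e-05, 0.00178 and 0.0001 for r). It also had an r of -0.58 with Ier2, -0.42 with Fosb, -0.38 with Fos and -0.38 with Junb (rho -0.58, -0.44, -0.39 and -0.38; adjusted permutation p = 0.0004, 0.0201, 0.04 and 0.0366 for r). Within young, old vehicle and old AP mice, Jun stood at 0.82, -0.06 and 0.74 with this list. Fosb stood at 0.53, -0.58 and -0.62 and Fos at 0.17, -0.79 and -0.30, while Atf3, Fosl2, Ier2 and Junb kept their sign in all 3 groups. The part of muscle content in the levels of Jun and Atf3 was tested only through the model with muscle markers, and that of heat shock, hypoxia and the other cell types was not tested.

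The genes outside the set whose pattern was most like that of Fos over the 41 mice were Zfp36 (r = 0.73), which encodes the mRNA decay factor tristetraprolin, itself an immediate early gene, then Crip1 (0.65), Cmklr1 (0.64), Baiap2 (0.64), Rps14 (0.64), Smoc1 (0.64), Tgfbr3 (0.63), Btd (0.62), Vat1 (0.62) and Rab23 (0.62). Zfp36 had an r with Fos of 0.83 in old vehicle, 0.79 in old AP and -0.06 in young mice, and for the 9 others r in young mice lay between -0.29 and 0.07. For the remaining members the nearest gene was Gas1 for Fosb (0.73), Tubb2b for Fosl1 (0.68), Map4k4 for Fosl2 (0.90), Sorbs3 for Jun (0.86), Rpl8 for Junb (0.92), Bmyc for Jund (0.93), Larp6 for Egr1 (0.75), Kars for Atf3 (0.84) and Gnb2 for Ier2 (0.92). Each was the gene with the highest r among those averaging 1 CPM or more, and they are given as a description without a test.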

How the data were processed

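RNA-seq of tibiae from 41 mice was analysed. Per the labels, the authors deposited raw counts per gene, made with TopHat2 2.0.6 and HTSeq on GRCm38, and all values start from those deposited counts. Genes with low counts were removed (filterByExpr, 19292 of 43346 genes kept), libraries were scaled by TMM, and the 3 groups were fitted in 1 model with edgeR 4.0.16 (quasi-likelihood test, Benjamini-Hochberg adjustment over all tested genes). A gene passed at an adjusted p below 0.05 and a log2 fold change beyond 0.5. CPM use TMM-scaled totals, and log2 CPM a prior count of 2. GC shares came from GENCODE M21 transcripts (99% of tested genes), with spline trends of 4 degrees of freedom. Alternatives were DESeq2 1.42.0, DESeq2 size factors, limma 3.58.1 with sample quality weights, no filter, 2 groups only and leaving out each mouse. The count test was tested on simulated data. Members and gene lists were chosen with earlier results of these data known. All 10 members were named, with up to 3 passing genes of 1 CPM or more per list and comparison by largest change, and the genes most like each member by r. Each mouse is 1 library, no label gives a batch or links mice across groups, and the closest pair of mice in a group differed by a chi-square of 31 per gene, above counting noise. The mitochondrial rows, all at 0, left no use of that share. Strand in counting is not given in the sources used here.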

Additional observations from a re-analysis of the deposited data

How the results depend on the processing

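No paired analysis was possible because the labels give no number that links mice of different groups. The cause of the changes below was not tested. For old vehicle against young mice, leaving out 1 mouse at a time gave 5 to 7 members and 6 to 12 of the other immediate early and feedback genes, with 7 or fewer of the latter without any one of old vehicle mice 16 and 23 and young mice 34, 36, 38 and 39. For those other genes, 19 passed with no fold threshold, 6 with GC and length trends removed and 7 with muscle markers in the model. The shares of all tested genes under these settings and in the fits without 1 mouse were not measured, so these counts show only how the lists depend on the setting. For old AP against old vehicle mice, DESeq2 passed 3 members and 3 other genes, and leaving out 1 mouse gave 0 to 3 of each. Jun, Junb and Jund passed together without old vehicle mouse 2, old AP mouse 9 or old AP mouse 10, 2 passed without old vehicle mouse 20, and 1 passed without any one of old vehicle mice 14 and 21, old AP mice 26 and 27 and young mouse 40. For old AP against young mice, 7 other genes passed with no fold threshold, where the share of all tested genes was not measured either. Leaving out 1 mouse gave 2 to 5 members and 3 to 5 other genes, the 5 members without old AP mouse 26, when Fos (0.83) and Egr1 (0.53) passed too. Of the 45 pairs, 5 passed in young, 11 in old vehicle and 9 in old AP mice alone, groups with fewer mice, and 15 without the 2 farthest mice.

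Signs changed for the values that follow. With GC and length trends removed, Fosl2 was at -0.029, 0.003 and -0.026 in the 3 comparisons (old vehicle against young, old AP against old vehicle, old AP against young) and Jund at -0.003 between old vehicle and young mice. With sample quality weights, Fosl2 was at -0.003 (old vehicle against young) and -0.017 (old AP against young), Fos at 0.056 and Fosb at 0.247 between old AP and old vehicle mice, and Ier2 at -0.017 between old AP and young mice. With muscle markers in the model, Atf3 was at 0.030 between old AP and old vehicle mice, and Fosl2 and Ier2 at -0.024 and -0.045 between old AP and young mice, where Fosl2 was at -0.006 with no filter and -0.003 with only 2 groups. Leaving out 1 mouse gave -0.050 to 0.060, -0.065 to 0.053 and -0.044 to 0.043 for Fosl2 in the 3 comparisons. Between old AP and old vehicle mice it gave -0.412 to 0.100 for Fos and -0.973 to 0.457 for Fosl1, and between old AP and young mice -0.013 to 0.208 for Junb and -0.062 to 0.089 for Ier2. In young mice alone, Fos had an r of -0.01 with Junb, -0.21 with Jund and -0.15 with Ier2. Depth limits Fosl1 alone among the members, at 1 to 7 reads in young mice.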
